A study of Mus musculus with 2 samples.

Results

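The 10 genes described here are the immediate early and heat shock genes *Fos*, *Fosb*, *Jun*, *Junb*, *Jund*, *Egr1*, *Atf3*, *Ier2*, *Hspa1a* and *Hspa1b*, taken by symbol from the 28692 features of 2 single-cell count tables. They were chosen because they are the genes that enzymatic tissue dissociation is known to induce, and the question was which stromal classes carried their transcripts. The tables came from grafts of intestine from EYFP (C57BL/6) mouse embryos at mid-gestation, sired by EYFP males on C57BL/6Nrj dams, placed under the kidney capsule of adult WT mice and recovered after 4 weeks. One library held sorted cells of large intestinal (LI) grafts and the other those of small intestinal (SI) grafts, and both were sorted as live, YFP+, Itgb1+ and negative for CD45, Ter119, BP3, CD31, EpCAM and L1CAM. Every cell therefore passed through the same host site and sort, and no library of undissociated, ungrafted or unsorted cells was analysed here. Each group was 1 library, so no test of a difference between grafts was possible. Intervals given with levels are exact 95% Poisson intervals, those given with shares are exact (Clopper-Pearson) binomial intervals, and those given with ratios are exact intervals of the split of counts. They cover counting error only.

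Immediate early genes are transcribed within minutes of a stimulus, without new protein synthesis, from promoters that are held ready in resting cells. The proteins of the Fos and Jun families pair through leucine zippers to form the AP-1 transcription factor, while Egr1 is a zinc finger factor, Atf3 is a stress-induced factor of the wider AP-1 group and Ier2 is a small nuclear protein of the same early wave. *Hspa1a* and *Hspa1b* encode the inducible HSP70 chaperones, which bind unfolded proteins and are switched on by heat shock factor 1. In dissociated tissue both groups are widely used as signs of handling, although growth factors, mechanical strain and wounding induce them as well.

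RefSeq promoters (GRCm38.p6, 250 bases before to 50 bases after the annotated start) were at hand for 8 of the 10 genes. The stretches below are shown because regulation at the promoter defines both gene groups, and they hold 3 textbook motifs: the core of the cAMP response element (TGACGT or its complement), the paired unit of a heat shock element (GAANNTTC) and a TATA box (TATAAA), all in capitals. They run 5′ to 3′ on the gene's strand, at chr12:85473804-85473886 (+) for *Fos*, chr1:191183334-191183393 (-) for *Atf3*, chr4:95052321-95052370 (-) for *Jun*, chr17:34972157-34972280 (-) for *Hspa1a* and chr17:34959239-34959362 (-) for *Hspa1b*. In the heat shock pair the capital near the end marks a base at which the copies differ.
Fos: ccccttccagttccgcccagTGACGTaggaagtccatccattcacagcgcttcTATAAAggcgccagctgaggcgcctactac
Atf3: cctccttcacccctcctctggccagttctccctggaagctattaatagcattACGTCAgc
Jun: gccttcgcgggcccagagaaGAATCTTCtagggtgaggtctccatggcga
Hspa1a: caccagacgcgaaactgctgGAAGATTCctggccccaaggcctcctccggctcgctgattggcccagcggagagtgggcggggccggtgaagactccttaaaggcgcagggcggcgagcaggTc
Hspa1b: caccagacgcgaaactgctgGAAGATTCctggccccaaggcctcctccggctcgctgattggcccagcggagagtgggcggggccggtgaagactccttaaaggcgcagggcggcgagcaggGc

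The motifs were searched on both strands, and no matches of different motifs overlapped. TGACGT was found in the promoters of *Fos* and *Atf3* and in 7.51% of all 32851 promoters of this length. GAANNTTC was found in those of *Jun*, *Hspa1a* and *Hspa1b* and in 7.86% of all promoters. TATAAA was found in those of *Fos* and, at the start itself, *Junb* and in 13.6% of all promoters. The AP-1 site TGANTCA (7.81% of all promoters), the reverse heat shock unit TTCNNGAA (8.52%) and the CArG box (1.63%) had no match within these windows in the 8 genes. The windows of *Hspa1a* and *Hspa1b* were the same at 296 of 300 bases (98.7%), and the 4 differences, counted from the first base of the window with *Hspa1a* first, were C44T, T47C, T249G and C276T. Both genes lie on chromosome 17 (GRCm38, GENCODE vM21), *Hspa1a* at 34969190 to 34972156 and *Hspa1b* at 34956436 to 34959238, with 9951 bases between them.

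This likeness bears on how far the pair can be counted apart. Of all stretches of 100 bases in the *Hspa1a* transcript, 47.1% also occurred in the *Hspa1b* transcript. None of those in the last 500 bases did, while 43.6% of those in the first 500 bases did. The labels do not tell whether each library was read from the 3′ or from the 5′ end of transcripts, so how well reads of the pair could be assigned is unknown, and the genes are given singly and as a sum. The kit, the tissue and the handling of the tissue, which was shaken for SI and magnetically stirred for LI during digestion, cannot be told apart between the grafts.

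The LI table held 11568 barcodes and 63348069 UMIs and the SI table held 9631 barcodes and 54918006 UMIs, with 26 barcode sequences in both. Barcodes with fewer than 500 genes, with over 10% mitochondrial UMIs or with the highest doublet scores were left out, leaving 8882 LI and 7259 SI cells with medians of 5146.5 and 5547 UMIs. A cell entered a class when enough marker genes of that class were detected in it, and 92.6% of LI and 92.9% of SI cells did. Gated fibroblasts (FB) numbered 7094 and 5233 and comprised PDGFRAhi FB (318 and 256 cells in LI and SI), CD81 FB (333 and 494), Pi16 FB (364 and 212), Fgfr2 FB (2435 and 1597), MHC class II FB (156 and 72), FB of several subset gates (703 and 861) and other FB (2785 and 1741). Pericytes numbered 466 and 835, smooth muscle cells (SMC) 265 and 345, cells in both of these gates 58 and 217, and interstitial cells of Cajal (ICC), the pacemaker cells of the gut wall, 267 and 34. In the classes the results turn on, the markers of endothelium, epithelium, kidney tubule and erythroid cells each summed to at most 13.4 CPM (UMIs of the genes per 1000000 UMIs of the class) in the PDGFRAhi FB and the ICC of both grafts. Immune markers summed to 47.2 CPM in LI and 70.5 CPM in SI PDGFRAhi FB and to 110.1 CPM in LI and 19.6 CPM in SI ICC, and fibroblast markers to 5635 CPM in LI and 2549.7 CPM in SI ICC. Graph clusters named from the same markers gave the same name to 61.4% of gated LI cells and 50.8% of gated SI cells.

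The 8 early response genes took up a large share of all transcripts in both grafts. In gated FB of the LI graft they summed to 25295 CPM (interval 25248 to 25342), and in those of the SI graft to 24340 CPM (24287 to 24394), that is 2.53% and 2.43% of all UMIs. At least 1 UMI of the 8 was found in 99.5% of LI and 99.1% of SI FB. *Hspa1a* and *Hspa1b* together gave 604 CPM (597 to 612) and 733 CPM (724 to 743), and 60.2% and 61.0% of FB held a UMI of the pair. No undissociated sample was at hand, so the part of dissociation in these levels was not tested.

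Between the grafts, FB taken as a whole differed little. No member reached a 2-fold difference in gated FB in either direction, against 1.95% of 8627 genes tested that were at least 2-fold higher in LI and 1.69% that were at least 2-fold higher in SI. The largest difference among the 10 was that of *Atf3*, at 1053 CPM in LI and 1481 CPM in SI (log2 LI over SI -0.49, interval -0.51 to -0.47). With female cells only *Atf3* was 1202 and 1248.5 CPM (log2 -0.05), and *Fosb* differed most, at 2014 and 1429 CPM (log2 0.49). *Fosb* lay at 1786 and 1342 CPM in LI and SI, and *Jun* at 5841 and 4805 CPM. The median log2 difference over the 8 early genes was 0.01, next to -0.01 over all genes tested. Similar totals in FB as a whole hid opposite differences in the subsets, which are described by gene family below.

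**Figure D1:**
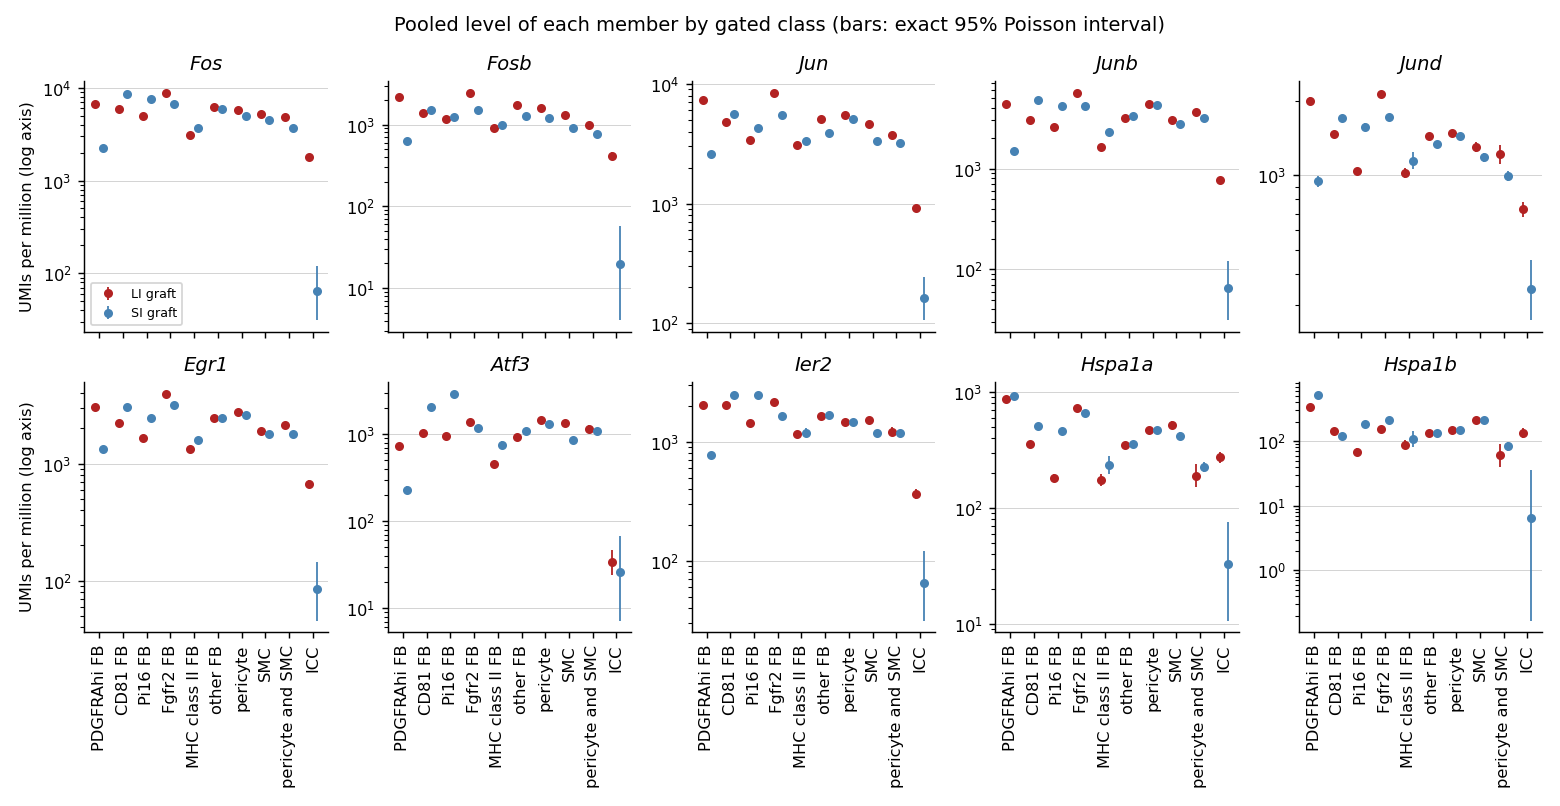
Pooled CPM (log axis) of each of the 10 genes in 9 gated classes and in ICC, red for the LI graft and blue for the SI graft, with exact 95% Poisson intervals. The early response genes were lowest in ICC, and for all 8 of them LI stood above SI in the PDGFRAhi FB and below it in the CD81 and Pi16 FB. FB of several subset gates are left out.

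Among the 10 classes with at least 50 cells in both grafts, the Fos family members, the partners that cannot pair with themselves in AP-1, were highest in the Fgfr2 FB of the LI graft. *Fos* reached 8842 CPM there and fell to 3097 CPM in the MHC class II FB, with 6719 in the PDGFRAhi, 5899 in the CD81 and 4923 CPM in the Pi16 FB. In the SI graft its order was another: *Fos* was highest in CD81 FB (8482 CPM) and Pi16 FB (7528 CPM), and the PDGFRAhi FB were lowest at 2268 CPM. *Fosb*, which encodes another Fos protein of the same early wave, ran from 907 CPM in MHC class II FB to 2445 CPM in Fgfr2 FB in LI. In SI it ran from 630 CPM in PDGFRAhi FB to 1506 CPM in CD81 FB, a level whose interval overlapped that of the Fgfr2 FB (1497 CPM). For both genes the PDGFRAhi FB thus held the second place in LI and the last in SI.

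Jun proteins can pair with Fos proteins or with each other. *Jun* was highest in the Fgfr2 FB of LI (8449 CPM) and in the CD81 FB of SI (5631 CPM), and lowest in the MHC class II FB of LI (3067 CPM) and the PDGFRAhi FB of SI (2619 CPM). *Junb*, which tempers *Jun* activity in many cells, followed the same classes, at 5641 and 4807 CPM at the top and 1632 and 1482 CPM at the bottom. *Jund*, the family member that resting cells also keep, was flatter than *Jun* and *Junb*. Its levels ran from 1023 to 2140 CPM in LI and from 948 to 1717 CPM in SI, and Fgfr2 FB were highest in both grafts, with an interval that overlapped that of CD81 FB in SI. In female cells of SI the top classes were others: *Jun* was 5557 CPM in Fgfr2 FB and 5439 CPM in CD81 FB, and *Junb* 4423 CPM in pericytes and 4235.5 CPM in CD81 FB.

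*Egr1*, like *Jund*, had Fgfr2 FB as its highest class in both grafts, at 3955 CPM in LI and 3190 CPM in SI. Its lowest classes were MHC class II FB in LI (1328 CPM) and PDGFRAhi FB in SI (1332 CPM). *Ier2* was highest in Fgfr2 FB in LI (2134 CPM) and in Pi16 FB in SI (2476 CPM), where the CD81 FB (2459 CPM) lay within counting error of it. *Atf3* had the widest range of the early genes in SI. There it went from 230 CPM in PDGFRAhi FB to 2868 CPM in Pi16 FB, a 12.4-fold range, while in LI it went from 447 CPM in MHC class II FB to 1450 CPM in pericytes, a 3.24-fold range. *Atf3* was the only early gene whose highest class in LI was not the Fgfr2 FB.

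Of the 10 genes, 8 (all but *Jund* and *Ier2*) varied at least 2-fold from the lowest to the highest of the 10 classes in both grafts, next to 44.4% of 8196 genes tested. A range of at least 4-fold in both grafts was found for 2 of the 10, *Hspa1a* and *Hspa1b*, next to 15.5% of genes tested. The highest class was the same in both grafts for 4 genes, *Jund* and *Egr1* (Fgfr2 FB) and *Hspa1a* and *Hspa1b* (PDGFRAhi FB), next to 36.9% of genes tested, and for 2 with TMM scaling. The number with a 4-fold range fell to 1 with TMM scaling or with means over cells. It fell to 0 with a gate that needed 1 more marker, which left 7 classes to compare, and with female cells only, which left 8. It rose to 9 with a looser cell filter, under which 11 classes were compared.

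PDGFRAhi FB, cells that lie beneath the epithelium, showed the largest difference in the early sum between grafts among the classes with at least 50 cells in both. All 8 early response genes were at least 2-fold higher in the LI than in the SI graft in this class, next to 4.4% of 9168 genes tested. *Fos* was 6719 CPM in LI and 2268 CPM in SI (log2 LI over SI 1.57). *Atf3* was 730 and 230 CPM (log2 1.66, interval 1.50 to 1.84), and *Egr1*, with the second smallest ratio, 3065 and 1332 CPM (log2 1.20, 1.13 to 1.28). The sum of the 8 was 28488 CPM (28233 to 28745) in 318 LI cells and 10283 CPM (10125 to 10442) in 256 SI cells, a log2 difference of 1.47 (1.44 to 1.50). With all cells *Hspa1a* was 878 and 929 CPM (log2 -0.08, -0.19 to 0.02) and *Hspa1b* 337 and 515 CPM (log2 -0.61, -0.77 to -0.46). With female cells only the pair too was higher in LI, at 1131 and 508 CPM (log2 1.15, 0.99 to 1.32), with *Hspa1a* at 846 and 316 CPM (log2 1.42) and *Hspa1b* at 285 and 192 CPM (log2 0.57). Among female cells 9 of the 10 members were at least 2-fold higher in LI PDGFRAhi FB, next to 6.15% of genes tested.

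Within each graft the PDGFRAhi FB stood on opposite sides of the remaining FB for the early genes. Their sum was 1.13-fold above that of other gated FB in LI (25169 CPM) and 2.44-fold below it in SI (25045 CPM). In SI the gap was widest for *Atf3*, 6.69-fold below other FB, and narrowest for *Jund*, 1.67-fold below. The mitochondrial share of these cells was alike in the grafts, with medians of 2.73% and 2.76%. Split by that share into 3 groups of like size, the LI cells gave sums of 37673, 28058 and 18046 CPM from the lowest to the highest share and the SI cells gave 12905, 9298 and 7854 CPM, so LI was higher in every one. Other markers differed as well: the 6 Fgfr2 FB markers summed to 12090 CPM in LI and 3999.8 CPM in SI PDGFRAhi FB, and the 8 SMC markers to 1454 and 2875 CPM, with none of them at 0. The LI sum of the Fgfr2 FB markers was above that of the LI Fgfr2 FB themselves (10855 CPM), the class with the highest early sum in LI. Yet PDGFRAhi FB held a median of 2 of these 6 markers per cell in both grafts, against 4 in Fgfr2 FB. The 8 pericyte markers summed to 119 and 341 CPM, with 2 and 1 of them at 0. The part of these markers in the difference was not tested. With female cells only, the sum was 29934 CPM in 294 LI cells and 9509 CPM in 129 SI cells (log2 1.65, 1.62 to 1.69).

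**Figure D2:**
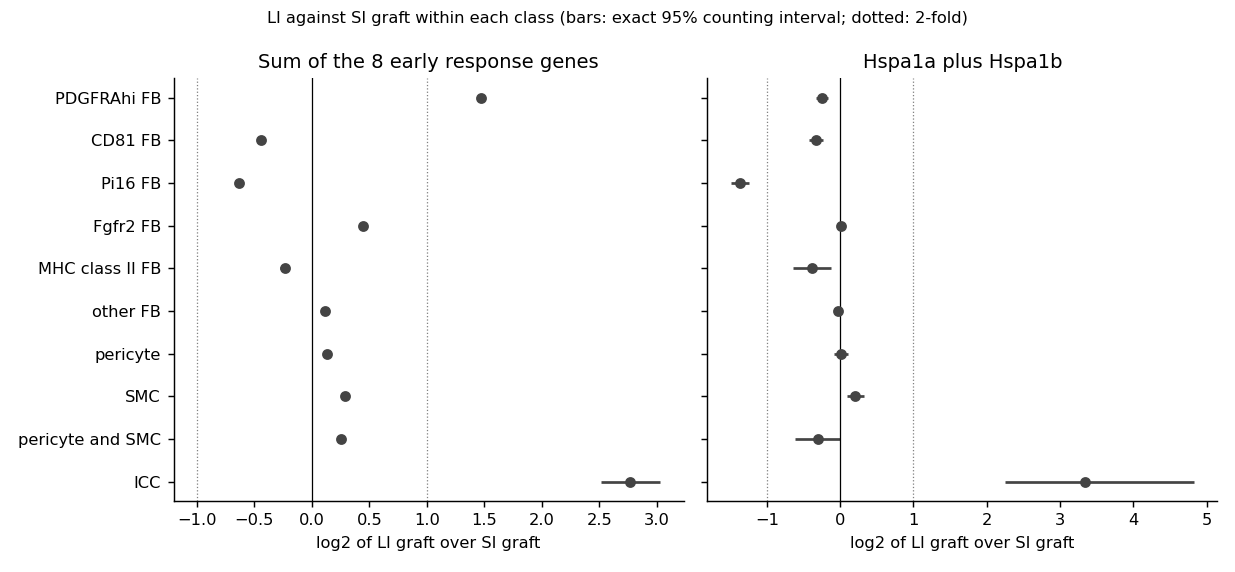
Log2 ratio of the LI over the SI graft in 9 gated classes and in ICC, for the sum of the 8 early response genes (left) and of Hspa1a and Hspa1b (right), with exact 95% counting intervals; dotted lines mark 2-fold. The PDGFRAhi FB lie at 1.47 on the left and -0.25 on the right, the Pi16 FB at -0.64 and -1.36, and the ICC, with 34 cells in SI, at 2.77 and 3.35. The ICC point on the right (interval 2.25 to 4.83) rests on 5 Hspa1a UMIs and 1 Hspa1b UMI in SI.

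CD81 and Pi16 FB, which are known from the deeper layers of the gut wall, lay on the other side. Their early response sums were 21827 and 17097 CPM in LI and 29712 and 26579 CPM in SI. In LI both were below the remaining gated FB (log2 -0.23 and -0.60) and in SI both were above them (log2 0.33 and 0.13). *Atf3* in Pi16 FB showed the largest of these gaps, at 939 CPM in LI and 2868 CPM in SI. In female cells only the LI graft was also lower, with sums of 23043 and 28383 CPM in CD81 FB and 17387 and 22796 CPM in Pi16 FB. Female gated FB had 27794 and 23808 CPM, so female Pi16 FB lay below them in both grafts, while female CD81 FB lay below them in LI and above them in SI. Markers of other cells differed between the grafts too, with the 8 SMC markers, none at 0, at 977 and 279.6 CPM in CD81 FB and 773 and 160.0 CPM in Pi16 FB. The 7 fibroblast markers summed to 48924 and 68661 CPM and to 47662 and 62810 CPM. By depth, in 3 groups of like size from the shallowest to the deepest, Pi16 FB had early sums of 22293, 19896 and 14171 CPM in LI. In SI they had 23780, 28651 and 26208 CPM, so the graft gap was smallest in the shallowest group. CD81 FB had 19659, 25182 and 20612 CPM in LI and 24811, 31341 and 30620 CPM in SI. By mitochondrial share, from the lowest to the highest, CD81 FB had 22982, 23863 and 17734 CPM in LI and 38161, 30257 and 17106 CPM in SI. With the highest share CD81 FB were thus not lower in LI. Pi16 FB had 19626, 17784 and 12844 CPM in LI and 34484, 27449 and 13633 CPM in SI. Fgfr2 FB, the largest named subset, was higher in LI (34975 against 25618 CPM; log2 0.45), and all 8 early genes had that direction in it. The 8 pericyte markers, none at 0, summed to 169 CPM in LI and 1155.6 CPM in SI Fgfr2 FB. The part of the markers of other cells, of depth and of mitochondrial share in the differences between grafts was not tested.

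Mural cells, as pericytes and SMC are called together, carried less of the early sum than gated FB taken as a whole. Gated FB had 25295 CPM in LI and 24340 CPM in SI. The early sum was 24351 CPM in LI and 22274 CPM in SI in pericytes, which wrap capillaries, and 20234 and 16518 CPM in SMC. In LI pericytes stood above the CD81, Pi16, MHC class II and other FB and the FB of several subset gates. In SI they stood above the PDGFRAhi, MHC class II and other FB. SMC stood above the Pi16 and MHC class II FB in LI and the PDGFRAhi and MHC class II FB in SI. *Junb* was the only member higher in pericytes than in gated FB in both grafts, next to 49.4% of genes tested, at 4339 against 3825 CPM in LI and 4311 against 3943 CPM in SI. *Hspa1b* was the only one higher in SMC in both, next to 36.8% of genes tested, at 212 against 140 CPM and 216 against 186 CPM. The pericyte count was 0 with TMM, 2 with clusters in place of gates, 4 with means over cells, 3 with cells thinned to 2000 UMIs and 3 with female cells only, and the SMC count was 0 with the stricter gate and 2 with female cells only.

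ICC carried the fewest early transcripts of any class described. Their sum was 5701 CPM (5562 to 5842) in 267 LI cells and 837 CPM (698 to 995) in 34 SI cells, 4.44-fold and 29.1-fold below gated FB of the same library. *Fos* was 1791 CPM in LI and 65.4 CPM (31.4 to 120.2) in SI, where it rested on 10 UMIs. *Atf3* was 34.0 CPM (24.1 to 46.7) in LI and 26.2 CPM (7.13 to 67.0) in SI, from 38 and 4 UMIs. In both grafts 8 of the 10 members were at least 2-fold lower in ICC than in gated FB, next to 7.63% of genes tested, and these were the early response genes. *Jund* was the highest of them in SI, at 347 CPM (259.6 to 453). The heat shock pair summed to 408 CPM in LI ICC and 39.2 CPM in SI ICC, against 604 and 733 CPM in gated FB. In SI ICC this sum rested on 5 *Hspa1a* UMIs and 1 *Hspa1b* UMI. Fibroblast markers in ICC also differed between grafts, as given above, and their part in the difference between LI and SI ICC was not tested.

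RNA that is free in a suspension reaches all droplets, ICC included. An *Atf3* UMI was seen in 9.74% of LI ICC and 11.8% of SI ICC, against 62.4% and 62.0% of gated FB, at median depths of 3938 and 4449.5 UMIs in ICC. ICC also had more mitochondrial UMIs, with medians of 4.70% in LI and 7.95% in SI, against at most 3.65% in any of the 10 classes compared. The part of cell damage in their low levels was not tested. Of 7 everyday genes 1, *Rplp0*, was at least 2-fold lower in ICC in both grafts, and their median log2 difference from gated FB was 0.26 in LI and 0.20 in SI.

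The heat shock pair followed another order. *Hspa1a* was highest in PDGFRAhi FB in both grafts, at 878 CPM (834 to 924) in LI and 929 CPM (882 to 977) in SI, followed by Fgfr2 FB at 722 and 656 CPM. It was lowest in MHC class II FB in LI (175 CPM) and in cells of both mural gates in SI (227 CPM). *Hspa1b* was also highest in PDGFRAhi FB, at 337 and 515 CPM, and lowest in cells of both mural gates, at 61.1 and 83.8 CPM. The sum was 2.09-fold above other gated FB in LI and 2.07-fold above them in SI. With female cells only the log2 excess in SI was 0.11, *Hspa1a* was 316 CPM in PDGFRAhi FB against 434 CPM in Fgfr2 FB and 429 CPM in pericytes, and *Hspa1b* was 192 against 203 CPM in SMC. Between grafts, the sum in Pi16 FB was 249.8 CPM in LI and 644 CPM in SI (log2 -1.36, -1.50 to -1.24) with all cells and 216 and 317 CPM (log2 -0.55) with female cells only.

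The share of the pair's UMIs that were counted to *Hspa1a* was not constant. It was 76.9% (76.4 to 77.4) in gated FB of LI and 74.6% (74.1 to 75.2) in those of SI. In LI it went from 66.3% in MHC class II FB to 82.3% in Fgfr2 FB, and in SI from 64.3% in PDGFRAhi FB to 80.7% in CD81 FB. The intervals of these lowest and highest shares did not overlap. The copies share much of their sequence, and the part of this in the shares was not tested.

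Cells of both sexes were found in each library, and the labels do not give the sex or number of the embryos. Cells with UMIs of the Y-linked *Ddx3y*, *Eif2s3y*, *Kdm5d* or *Uty* and none of *Xist* made up 9.09% of retained LI and 24.3% of SI cells, and those with *Xist* alone 81.5% and 55.4%. The remaining 9.45% and 20.4% could not be placed. Male cells had more UMIs, with medians of 8304 and 7263 against 5019.5 and 5211 in female cells, and the part of depth in this split was not tested.

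The heat shock pair was higher in male FB of the SI graft. In gated FB of SI it was 1010 CPM in 1203 male and 472 CPM in 3071 female cells (log2 1.10, interval 1.06 to 1.14). In SI PDGFRAhi FB it was 2422 CPM in 73 male and 508 CPM in 129 female cells (log2 2.25, 2.09 to 2.42). It was also higher in male cells in the CD81, Pi16, Fgfr2 and other FB of SI, but lower in its MHC class II FB (249.8 against 467 CPM in 33 and 22 cells). In LI the pair was lower in male than in female gated FB (491 against 626 CPM; log2 -0.35, -0.41 to -0.30), but higher in male CD81 FB (703 against 411 CPM) and Pi16 FB (529 against 216 CPM). The excess of the PDGFRAhi FB over other gated FB in SI fell from a log2 of 1.05 to 0.11 when only female cells were counted, while in LI it was 1.06 with all and 0.91 with female cells. The difference between grafts also turned: over gated FB the pair was lower in LI with all cells (log2 -0.28) and higher in LI with female cells only (626 against 472 CPM; log2 0.41, 0.37 to 0.44).

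The early response genes were lower in male FB of the LI graft. In gated FB of LI their sum was 16247 CPM in 656 male and 27794 CPM in 5843 female cells (log2 -0.77), with 21595 and 35737 CPM in Fgfr2 FB, of which 2.34% were male. MHC class II FB of LI, of which 53.8% were male, went the other way, at 12760.0 and 11260.0 CPM. In SI the sums were 25801 and 23808 CPM in gated FB and 26064 and 26078 CPM in Fgfr2 FB. Sex cannot be told apart from the embryo, the graft or the recipient that the cells came from. Over gated FB, 9 of the 10 members were higher in LI with female cells only, next to 42.9% of genes tested, and 5 with all cells, next to 48.9%.

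**Figure D3:**
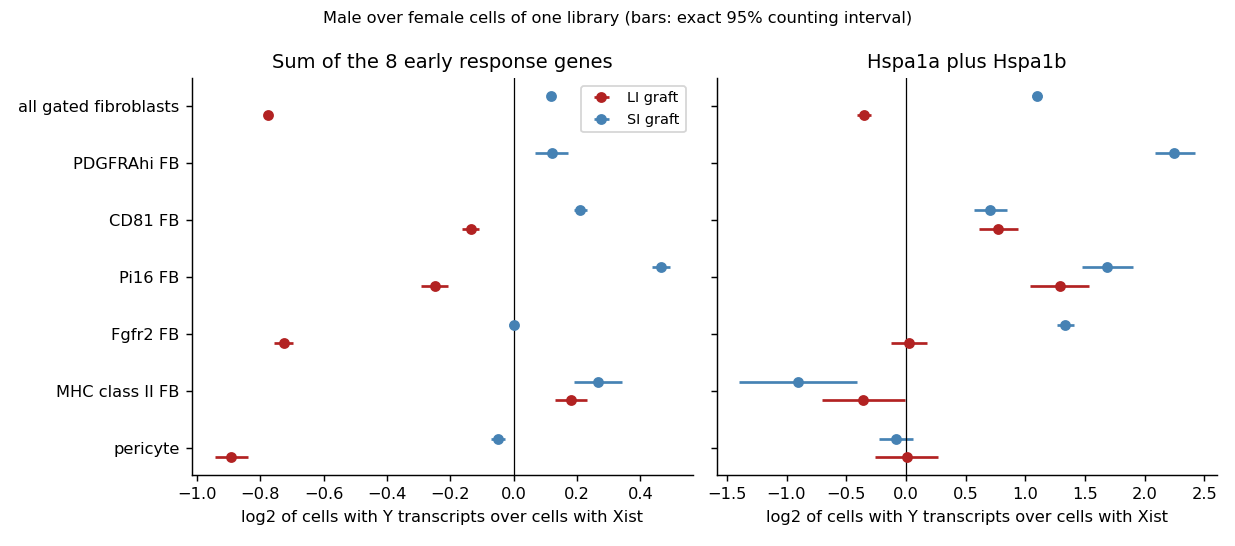
Log2 ratio of male over female cells within a library, for the sum of the 8 early response genes (left) and of Hspa1a and Hspa1b (right), in gated FB, 5 FB subsets and pericytes, with exact 95% counting intervals; LI PDGFRAhi FB are missing because 17 of their cells were male. On the right the SI points lie at 1.10 in gated FB and 2.25 in PDGFRAhi FB, and on the left the LI points lie at -0.77 in gated FB and -0.89 in pericytes.

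Single cells spread widely, also within a class. In Fgfr2 FB the early sum of a cell had a 10th percentile of 3819 CPM and a 90th percentile of 59505 CPM in LI, and 1722 and 48688 CPM in SI. In gated FB of LI, which pool several classes, the early sum of a cell had a 10th percentile of 2626 CPM, a median of 23899 CPM and a 90th percentile of 53873 CPM. In SI these were 1451, 20325 and 48352 CPM. The PDGFRAhi FB of SI lay lower, with a median of 5675 CPM against 26817 CPM in LI and a 90th percentile of 28160 CPM against 54222 CPM. As a fold this gap was wider at the median than at the 90th percentile. Of the UMIs of the heat shock pair, the 10% of cells with the most held 57.5% in gated FB of LI and 59.8% in those of SI. Low counts alone raise such a share, and its value at a matched level was not computed.

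**Figure D4:**
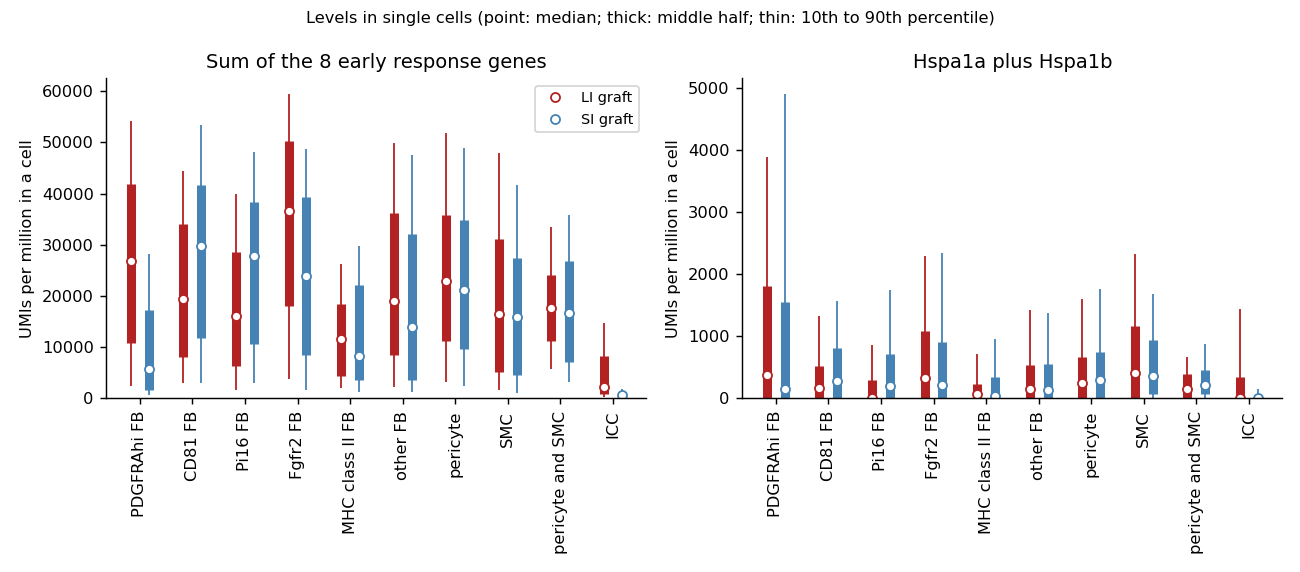
CPM in single cells of 9 gated classes and of ICC, for the sum of the 8 early response genes (left) and of Hspa1a and Hspa1b (right); points are medians, thick lines the 25th to 75th percentile and thin lines the 10th to 90th percentile. The median early sum was 36579 CPM in LI and 23987 CPM in SI Fgfr2 FB, and 2290 and 673 CPM in ICC.

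The levels of the early genes were correlated across cells. After each cell was thinned to 2000 UMIs, 77.1% of 6677 LI and 70.7% of 4926 SI gated FB held at least 6 of the 8 genes, and 1.24% and 1.87% held none. High levels alone raise such a share, and the share for unlinked genes of the same levels was not computed. Over the 28 pairs of early genes the correlation of log counts across these cells had a median of 0.56 in LI and 0.62 in SI, and the strongest were *Fos* with *Jun* in LI (0.77) and *Fos* with *Junb* in SI (0.80). The 16 pairs of an early with a heat shock gene had medians of 0.14 and 0.18. The thinned cells with a UMI of the heat shock pair held a median of 68 early UMIs in LI and 62 in SI, and those without held 35 and 25. These cells share a library and a depth but pool several FB classes. Within Fgfr2 FB alone, over 2382 LI and 1559 SI cells, the medians were 0.58 and 0.59 for pairs of early genes and 0.13 and 0.20 for early with heat shock genes.

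In each class that was split by mitochondrial share, the cells with the highest share had a lower early sum than those with the lowest, but not always by steps. In gated FB of SI it was 33005 CPM in the cells with the lowest mitochondrial share, 21861 CPM in the middle and 12716 CPM in those with the highest, in 3 groups of like size. In LI gated FB it was 24403, 28793 and 22056 CPM, highest in the middle, as it also was in the CD81 FB and ICC of LI and the pericytes of SI, and in the MHC class II FB of LI it was lowest there (15699, 9199 and 13527 CPM). Within the Fgfr2 FB of LI it was 40783, 35995 and 25853 CPM. The heat shock pair in gated FB was 484, 685 and 720 CPM in LI and 769, 768 and 622 CPM in SI. In Fgfr2 FB it was lower with a higher mitochondrial share in both grafts, at 987, 896 and 709 CPM in LI and 991, 897 and 666 CPM in SI. By depth, the early sum was 25648, 30472 and 22419 CPM from the shallowest to the deepest of 3 groups of LI gated FB and 18054, 24785 and 26127 CPM in SI.

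Other genes of the early response were also compared between grafts in PDGFRAhi FB. Of 14 genes that curb the early response, 7 were at least 2-fold higher in LI in this class (median log2 1.07), next to the 4.4% of all genes tested that holds for each list here. Among them *Btg2*, an antiproliferative gene, was 2625 CPM in LI and 958 CPM in SI, *Zfp36*, which destroys early response mRNAs, 1145 and 395 CPM, and *Dusp1*, a MAP kinase phosphatase, 1194 and 518 CPM. *Tsc22d3*, a glucocorticoid response gene of that list, lay the other way at 92.1 and 147 CPM. Of 10 other early transcription factors tested, 6 were at least 2-fold higher in LI (median log2 1.41), such as *Nr4a1* at 300.1 and 109 CPM and *Klf4* at 352 and 137 CPM. Of 9 further AP-1 and related factors tested, 4 were (median log2 0.85). The 2 metallothioneins were 360 and 74.3 CPM (*Mt1*) and 38.9 and 20.9 CPM (*Mt2*).

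Of 13 other chaperones of the heat shock response tested, 1 was at least 2-fold higher in LI PDGFRAhi FB, the small heat shock protein gene *Hspb1* (392 and 140 CPM), and the median log2 difference was 0.10. Of 8 genes of the endoplasmic reticulum stress response, 3 were (median log2 0.40), with its main chaperone *Hspa5* at 1696.5 and 846 CPM. None of 7 everyday genes was, and 1, *B2m*, was at least 2-fold higher in SI (524 and 1792 CPM). The median over all 9168 genes tested was -0.11. In gated FB as a whole 0 of the 14 curbing genes, 1 of 10 early transcription factors (*Nr4a2*, 137 and 61.2 CPM), 1 of 10 AP-1 related factors (*Fosl1*, 11.2 and 4.97 CPM), 1 of 2 metallothioneins (*Mt2*, 190.9 and 86.9 CPM) and 0 of 13 chaperones were 2-fold higher in LI, and none of the genes in these lists was 2-fold higher in SI, next to 1.95% and 1.69% of all genes tested, so lists of this size would hold few or none at those shares.

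In ICC the same lists were low with the members. At least 2-fold lower than in gated FB in both grafts were 10 of the 14 curbing genes, 9 of 10 early transcription factors and 6 of 9 AP-1 related factors, next to 7.63% of all genes tested. Of 13 other chaperones 3 were, among them *Dnajb1*, the HSP40 partner of HSP70, at 71.6 CPM in LI and 19.6 CPM in SI ICC against 431 and 492 CPM in gated FB. *Hspa8*, the constitutive HSP70, was 817 and 869.5 CPM in ICC and 1240 and 1161 CPM in gated FB.

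The genes most like the early sum by class were looked for among 2693 genes with at least 50 CPM in gated cells of both grafts, leaving out the fixed lists and class markers. Over 21 class levels, 11 of LI and 10 of SI, each centred on its library, the closest to the early sum was *Rnd3*, with a Pearson correlation of 0.94, followed by *Pde12* (0.92), *Tnfsf9* (0.90), *Sertad1* (0.90), *Glul* (0.87), *Mcl1* (0.85), *Creb5* (0.85), *Klf9* (0.84), *Gem* (0.83) and *Irf1* (0.83). *Hspa1a* and *Hspa1b*, which like these genes are not part of the early sum, were at 0.43 and 0.05. The level that LI has and SI lacks is that of ICC, in which the early sum was 4.44-fold below gated FB. Over the 20 levels without it these 10 genes had correlations of 0.67 (*Irf1*) to 0.91 (*Pde12*), and that of *Rnd3* was 0.89. Closest to the heat shock sum were *Ptch1* (0.85), *Pard3b* (0.84), *Nr3c1* (0.83), *Sh3pxd2a* (0.82) and *Kdm5b* (0.79). Class levels of one library share its cells, depth and handling, so the values have no test.

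Across single gated FB, the genes of the fixed lists most like the early sum were *Btg2* (mean correlation over both grafts 0.79), *Zfp36* (0.79), *Socs3* (0.72), *Ppp1r15a* (0.69) and *Dusp1* (0.68). Outside the lists they were *Pim1* (0.54), *Irf1* (0.54), *Hes1* (0.52), *Ccnl1* (0.52) and *Sertad1* (0.50). The everyday genes ran from -0.20 for *Ppia* to 0.01 for *Actb*. With the heat shock sum no gene outside the lists passed 0.29 (*Sertad1*), and the 10 chaperones of its own list ran from -0.0039 for *Hspd1* to 0.32 for *Hsp90aa1*, with *Dnajb1* at 0.30 and *Hspb1* at 0.04, next to 0.36 for *Btg2* among the curbing genes.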

How the data were processed

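A count table of the LI graft and one of the SI graft were used. The values are UMI counts per gene and cell barcode as deposited; per the submitters' processing notes the authors made them with Cell Ranger 3.1.0 on mm10 (the annotation release is not given in the sources used here), and Seurat 3 was used downstream. No column was left unused (0).

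Barcodes under 500 genes or over 10% mitochondrial UMIs were dropped. Scrublet, as in scanpy 1.11.5, marked 0 LI and 1 SI barcodes by its own threshold, so the highest scores were removed at 0.8% per 1000 barcodes (9.26% of LI and 7.70% of SI barcodes). Cells were gated on marker lists (2 to 5 markers detected); these thresholds were set after cells had been seen. UMIs were summed per class and library and scaled to CPM, and log2 ratios used a pseudocount of 1 CPM. Genes with at least 10 CPM in 1 library were tested against a fold of 2 for the comparison of grafts. Cells of a library are not replicates and each group was 1 library, so no p-value is given. Shares were also computed after thinning each cell to 2000 UMIs. Numbers were computed in Python 3.11.15 with numpy 2.4.6, scipy 1.17.1 and pandas 2.3.3, and TMM factors with edgeR 4.0.16 in R 4.3.3. The computations were tested on simulated data.

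The members and the gene lists were chosen with earlier results of these data known. The genes named are the 10 members, examples from the fixed lists and the genes most like the members among those with at least 50 CPM. Of 68 listed genes 1 is not analysed here. Alternatives for 4 results (PDGFRAhi FB and ICC) and the likeness without LI ICC were added after seeing the data. Sequences are from RefSeq and gene positions from GENCODE.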

Additional observations from a re-analysis of the deposited data

Results flagged for a closer look

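Some classes lay on opposite sides of the other fibroblasts in the 2 grafts, and these differences were not tested. The early response sum of PDGFRAhi FB had a log2 difference from other gated FB of 0.18 in LI and -1.28 in SI. For CD81 FB it was -0.23 in LI and 0.33 in SI, and for Pi16 FB -0.60 in LI and 0.13 in SI. In female cells alone Pi16 FB lay below gated FB in both grafts (17387 and 27794 CPM in LI, 22796 and 23808 CPM in SI). The heat shock sum of SMC against all gated FB was 0.28 in LI and -0.20 in SI. In female cells alone SMC lay above gated FB in both grafts (791 and 626 CPM in LI, 587 and 472 CPM in SI).

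The barcodes left out of the main comparisons held the transcripts too. In LI the early response sum was 15891 CPM in barcodes under 500 genes and 15261 CPM in those with more genes but over 10% mitochondrial UMIs, against 24344 CPM in retained cells. In SI it was 8185 and 7772 CPM, against 22537 CPM. The heat shock sum was 482 and 481 CPM in the excluded LI barcodes (599 CPM in retained cells) and 210 and 211 CPM in the excluded SI barcodes (677 CPM in retained cells).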

How the results depend on the processing

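Over 11 results and up to 11 alternatives 120 values were computed, of which 81 stayed within the counting interval or within 1.5 times the count, 38 moved beyond it and 1 changed sign. The limits are that 1 library stood for each graft, that neither counting error nor any alternative covers differences between embryos, recipients or digestions, and that no paired analysis was possible because each group holds a single library. SI ICC are 34 cells, whose Atf3 rests on 4 UMIs. Dropping cells under 1000 genes or over 5% mitochondrial UMIs gave no value for the ICC count, which was 8 or 9 under the other alternatives.

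The log2 difference between grafts in the early sum of gated FB (0.06) was 0.06 without doublet removal, 0.08 with clusters, 0.08 with a gate that needed 1 more marker, 0.21 with means over cells, 0.05 with TMM, 0.21 after thinning and 0.22 in female cells. That of the heat shock pair (-0.28) was -0.25 without doublet removal, -0.07 with means over cells, -0.08 after thinning and 0.41 in female cells. In PDGFRAhi FB the early sum (1.47) gave 1.41 without doublet removal, 1.51 with clusters, 1.56 with the stricter gate, 1.58 with TMM, 1.50 after thinning and 1.65 in female cells. The heat shock excess of that class in LI (1.06) was 1.31 with clusters, 1.13 with the stricter gate, 0.95 with means, 0.87 with TMM, 0.82 after thinning and 0.91 in female cells, and in SI (1.05) it was 0.73 with TMM and 0.11 in female cells.

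The count of members higher in LI (5) was 9 in female cells, and that with the same highest class (4) was 2 with TMM. The count with a 4-fold range (2) was 9 with a looser filter, which compared 11 classes, 1 with means and 1 with TMM. It was 0 with the stricter gate, which compared 7 classes, and 0 in female cells, with 8 classes. Members higher in SMC (1) numbered 0 with the stricter gate and 2 in female cells, and those higher in pericytes (1) numbered 2 with clusters, 4 with means, 0 with TMM, 3 after thinning and 3 in female cells. The cause was not tested.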
